A study of Mus musculus with 8 samples.

Results

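Chemokines are small secreted proteins that bind receptors on leukocytes and other cells and guide their movement, and interleukin 6 is a secreted cytokine that signals through a shared receptor chain and JAK kinases. Stromal cells of fat are a known source of both. Their genes are switched on by several routes. NF-kB acts on most of them after interleukin 1, TNF or Toll-like receptor signals, while Ccl5 and Cxcl10 are also driven by interferons and by interferon regulatory factors (IRFs), of which IRF7 is one. The results below cover 10 genes chosen by name: the CC chemokines Ccl2, Ccl5, Ccl7 and Ccl20, the CXC chemokines Cxcl1, Cxcl5, Cxcl10, Cxcl12 and Cxcl16, and Il6. All 10 were found by symbol on all 8 arrays, among 19505 named genes. They were read as 2 interferon-driven genes, Ccl5 and Cxcl10, and 8 others. The choice was made with earlier results of these data known.

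The cells were mouse mesenchymal stromal cells (MSCs) from the inguinal fat pad of male FVB mice aged 12 months. They carried the lentiviral plasmid pLKO.1 as an empty vector (2 arrays), with a scramble hairpin (2 arrays) or with a hairpin against Irf7 (shIRF7, 4 arrays). Every group, controls included, had thus been infected with a pLKO.1 lentivirus, and no sample is labelled as uninfected. The question was which transcripts differ when Irf7 is knocked down in MSCs of this age, and the series as a whole concerns IRF7 in the ageing of these cells. Whether replicates are separate cultures, infections or animals is unstated in the labels. A p-value here therefore reflects array-to-array spread that could be purely technical, and with 8 arrays precision is limited. The labels also leave the hairpin's sequence, and the number of hairpins used, unstated.

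Levels are log2 values made by RMA. A level was called above background on an array where it exceeded the 95th percentile of that array's negative control probe sets, which lay between 7.93 and 8.72. Differences are log2 differences, shIRF7 minus controls, and a gene was called where its limma p, adjusted by Benjamini-Hochberg over all 19505 genes, was under 0.05. The targeted gene measured 9.55 and 9.61 on the empty vector arrays and 9.56 and 9.76 on the scramble arrays. It measured 4.42, 5.66, 6.47 and 6.79 on shIRF7 arrays 1 to 4. Irf7 was thus lower on every shIRF7 array than on every control array, by -3.79 (SE 0.483), and its adjusted p of 0.0692 did not pass the threshold. None of its shIRF7 values was above background, so the size of that difference is uncertain and may be understated. On each array the median negative control tracked the replicate number: 4.18 to 4.26 on the replicate 1 arrays of all 3 groups, 4.55 to 4.56 on the replicate 2 arrays, and 4.54 and 4.33 on shIRF7 arrays 3 and 4. Differences within replicate 1 and within replicate 2 are therefore printed beside the pooled values of genes the results turn on. Each rests on 1 shIRF7 array, and shIRF7 arrays 3 and 4 enter neither. Over all genes, however, the numbers did not pair shIRF7 with controls. Deviations of same-numbered arrays from their group means correlated between -0.310 and -0.161 with shIRF7. The within-replicate differences are thus a description and not a paired comparison. Between empty vector and scramble such deviations correlated at 0.757, so the control arrays shared a replicate pattern. With 2 arrays in each control group, replicates 1 and 2 give this same value. The main fit holds no replicate term, so its SEs and p-values treat all arrays as independent. Arrays shIRF7 2 and 3 were the closest pair of the same group, with an SD over genes of their difference of 0.322, against 0.495 to 0.917 for the other pairs.

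The cell identity given by the labels was checked on markers. Of 8 MSC markers 6 were measured, of which Pdgfrb, Itgb1, Eng and Cd44 lay above background on average. Nt5e stayed between 2.68 and 3.07 on all arrays, and Thy1 ran from 4.87 to 9.54. No measured marker of macrophages and other leukocytes (8 of 10 listed), of endothelial cells (6 of 6) or of epithelial and mesothelial cells (6 of 6) was above background on average. The mean over the leukocyte markers was 3.39 to 3.70 on control arrays and 3.38 to 3.68 on shIRF7 arrays, below the median of the negative controls on each array. Of 5 adipocyte markers only Lpl was above background on average.

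For 5 of the 10 genes (Cxcl10, Ccl20, Cxcl1, Cxcl12 and Il6) RefSeq promoter entries of GRCm38.p6 were at hand. Ccl2, Ccl5, Ccl7, Cxcl5 and Cxcl16 had no entry in that table. Upstream stretches of 250 bases are shown for the member of the interferon-driven pair that has an entry, for a pair of NF-kB genes, and for Cxcl12, because these are the routes the comparison sets apart. Each is written 5′ to 3′ and ends at the base before the RefSeq start. Capitals mark matches, on either strand, to an IRF element (GAAANNGAA), an NF-kB site (GGANNTTCC) or a GC box (GGGCGG). The Cxcl10 stretch is chr5:92348890-92349139 (minus strand), Cxcl1 is chr5:90890995-90891244 (plus strand), Il6 is chr5:30012864-30013113 (plus strand) and Cxcl12 is chr6:117168285-117168534 (plus strand).
Cxcl10: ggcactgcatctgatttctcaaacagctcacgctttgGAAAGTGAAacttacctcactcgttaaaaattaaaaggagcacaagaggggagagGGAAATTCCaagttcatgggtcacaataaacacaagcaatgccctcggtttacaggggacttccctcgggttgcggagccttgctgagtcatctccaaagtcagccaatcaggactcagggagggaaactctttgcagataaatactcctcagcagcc
Cxcl1: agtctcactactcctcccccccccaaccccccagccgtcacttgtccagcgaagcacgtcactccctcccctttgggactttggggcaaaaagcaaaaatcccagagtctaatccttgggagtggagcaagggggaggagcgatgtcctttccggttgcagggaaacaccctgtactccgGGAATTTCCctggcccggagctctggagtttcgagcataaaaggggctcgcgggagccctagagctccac
Il6: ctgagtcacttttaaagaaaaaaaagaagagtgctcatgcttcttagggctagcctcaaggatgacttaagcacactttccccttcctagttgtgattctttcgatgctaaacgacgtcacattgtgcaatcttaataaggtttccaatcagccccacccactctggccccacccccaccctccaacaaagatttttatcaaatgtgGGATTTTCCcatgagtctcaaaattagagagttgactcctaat
Cxcl12: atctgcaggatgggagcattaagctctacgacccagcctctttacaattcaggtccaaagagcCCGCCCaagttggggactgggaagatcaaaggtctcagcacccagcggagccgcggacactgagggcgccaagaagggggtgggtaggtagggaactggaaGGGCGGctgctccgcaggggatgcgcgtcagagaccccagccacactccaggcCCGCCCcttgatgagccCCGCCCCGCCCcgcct
Cxcl10 alone of the 5 had a match to the IRF element, 213 to 205 bases before the start, as well as an NF-kB match at 158 to 150 bases. Cxcl1 had an NF-kB match 70 to 62 bases before the start and Il6 one at 43 to 35 bases. The NF-kB letters matched on both strands at the same place in Cxcl10 and Cxcl1. Cxcl12 had 5 GC box matches, of which the 2 nearest the start share a base, and no match to the other motifs. Ccl20 had none of the 3 motifs. Among 32851 RefSeq promoter entries, 7.13% held the IRF element in the same 250 bases, 3.59% the NF-kB site and 32.7% the GC box. A match is only these letters in this window.

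**Figure D1:**
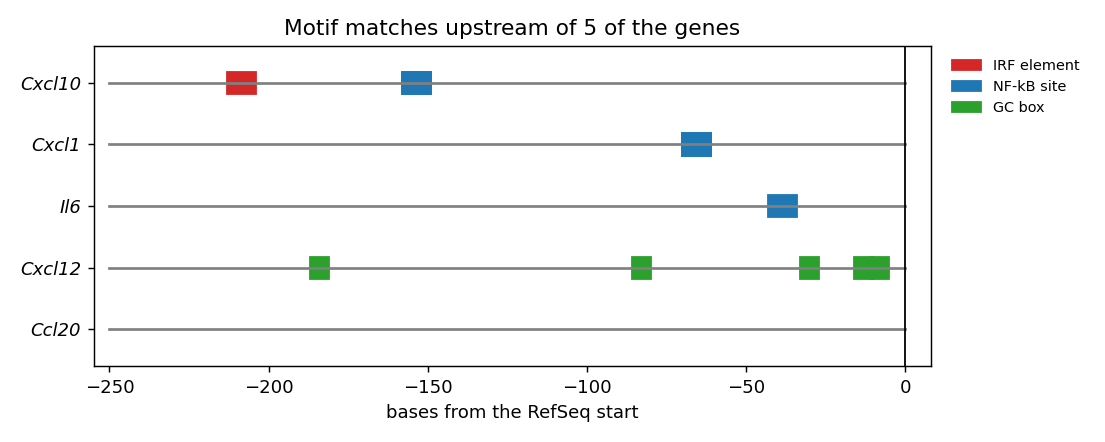
Positions of motif matches in the 250 bases upstream of the RefSeq start of 5 genes (x axis, bases from the start; 1 line per gene, coloured boxes are matches on either strand). The only IRF element lies in Cxcl10, NF-kB matches lie in Cxcl10, Cxcl1 and Il6, and Cxcl12 holds GC boxes alone.

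Across the 10 genes, limma called 0 in shIRF7 against both controls, where 0.0308% of all genes were called (6 genes). At an unadjusted p under 0.05, 3 of the 10 were lower (Ccl5, Ccl2 and Ccl7), beside 4.1% of all genes lower, and 0 were higher, beside 4.01%. Only Ccl5 had all 4 shIRF7 values below all 4 control values, a pattern seen in 2.8% of all genes, and 0 had all 4 above, beside 2.58%. The difference had a negative sign in 7 genes and a positive sign in Cxcl12, Ccl20 and Cxcl16, with a median over the 10 of -0.99 against a median of 0.0017 over all genes. This median rested on single arrays: it was -0.40 without empty vector replicate 2, -0.42 without scramble replicate 2 and -0.63 without shIRF7 replicate 3. Within replicate 1 the median of the 10 was -0.099 (all genes, -0.020), and within replicate 2 it was -1.66 (all genes, 0.014).

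**Figure D2:**
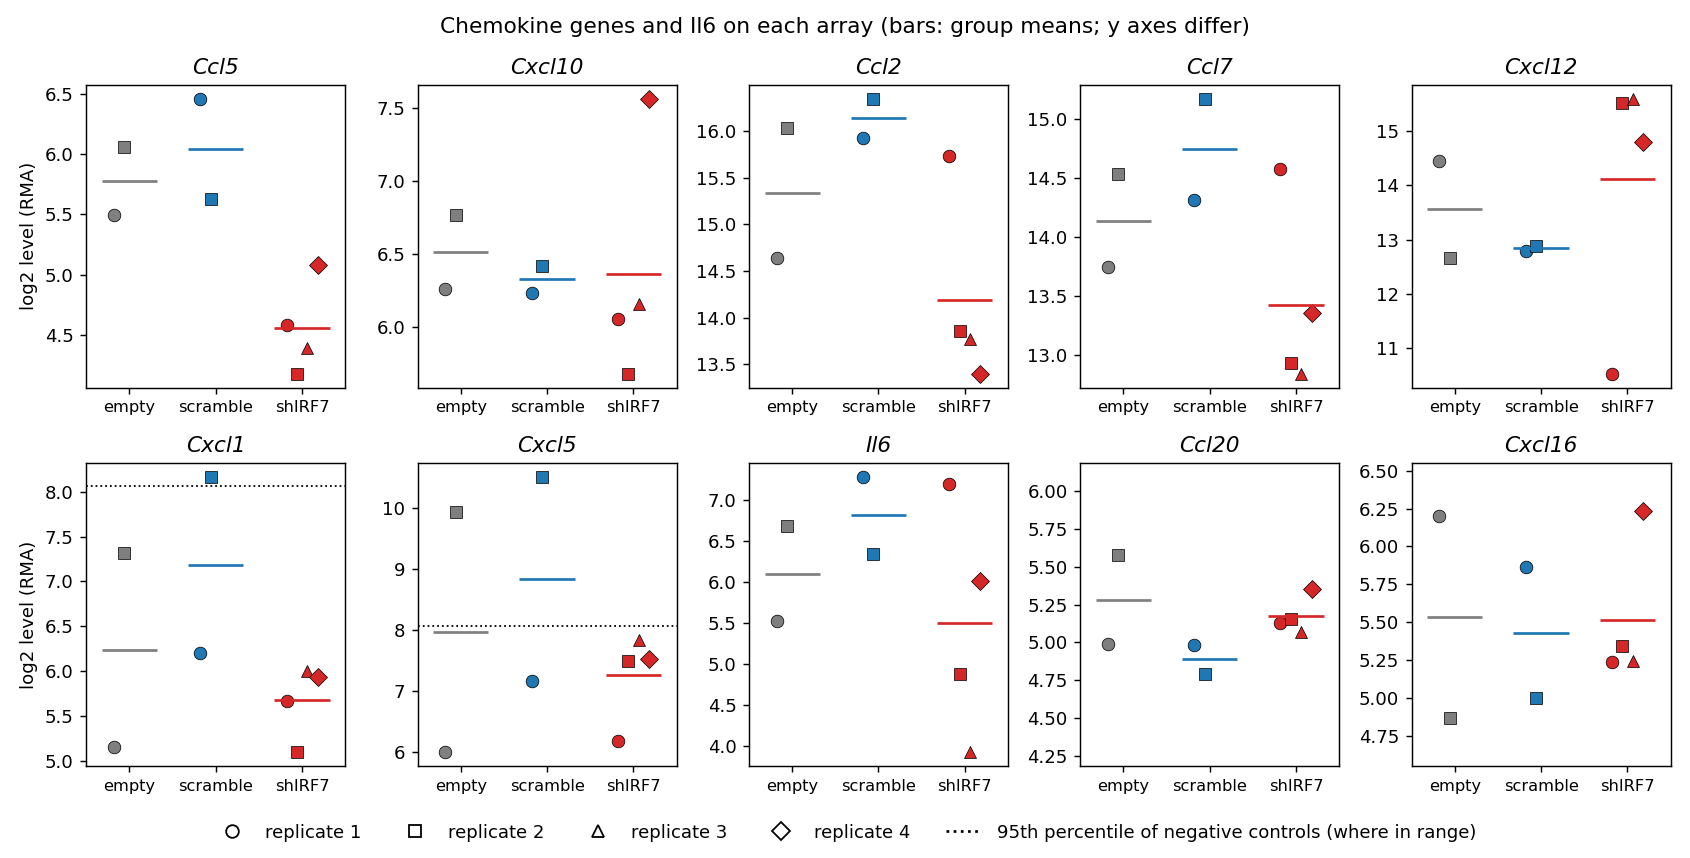
Log2 level (y axis, a separate scale per panel) of the 9 chemokine genes and Il6 on each array, by group (x axis), with marker shapes for replicates and bars for group means; the dotted line is the 95th percentile of the mean negative control, 8.07. Ccl5 is the panel where groups do not overlap, and shIRF7 array 1 stands apart from the other shIRF7 arrays for Ccl2, Ccl7, Cxcl12 and Cxcl5.

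Ccl5 (RANTES) recruits T cells and monocytes. Its level was 5.5 and 6.06 with the empty vector, 6.46 and 5.63 with scramble, and 4.58, 4.17, 4.39 and 5.08 on shIRF7 arrays 1 to 4. All 4 shIRF7 values lay below the lowest control value, and the spreads were alike: 5.91 ± 0.439 (SD, n = 4) in controls and 4.56 ± 0.389 (SD, n = 4) in shIRF7. The difference was -1.36 (SE 0.275, 95% interval -2.0 to -0.72), with an adjusted p of 0.21, so Ccl5 was not called. Replicate 1 arrays alone gave -1.40 and replicate 2 arrays alone -1.67, and leaving out any 1 array gave -1.57 to -1.15. No array put Ccl5 above background. Its control mean exceeded 80.5% of the negative control probe sets and its shIRF7 mean 53.1%, so the difference lies within the range of those probe sets and no fold is given. As in any bulk sample, fewer cells that make the transcript and less transcript per cell cannot be told apart.

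Cxcl10 (IP-10) draws activated T cells and NK cells through CXCR3 and is a standard marker of interferon action. It measured 6.26 and 6.77 with the empty vector, 6.23 and 6.42 with scramble, and 6.05, 5.67, 6.16 and 7.57 on shIRF7 arrays 1 to 4. Arrays 1 to 3 of shIRF7 lay just below all controls, and array 4 lay above all of them. The mean was 6.42 ± 0.248 (SD, n = 4) in controls and 6.36 ± 0.83 (SD, n = 4) in shIRF7. The difference of -0.056 (SE 0.396, 95% interval -0.98 to 0.86) had an adjusted p of 0.987. Cxcl10 was above background on 0 of 8 arrays.

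Among the shIRF7 arrays, array 2 was the lowest and array 4 the highest for both interferon-driven genes, but only Ccl5 lay below the controls on all 4. Averaged over both genes as deviations from the control mean, the pair stood at -0.85, -1.24, -0.89 and 0.16 on the 4 shIRF7 arrays and between -0.29 and 0.25 on control arrays. The same average over the other 8 genes was -0.66, -0.66, -0.66 and -0.36 on shIRF7 arrays and between -0.60 and 0.46 on control arrays. These near-equal averages join unlike shifts of single genes. On shIRF7 array 1, Cxcl5 deviated by -2.22 from its control mean and Ccl2 by -0.00045. On shIRF7 array 2 these deviations were -0.90 and -1.88. Cxcl12 measured 10.5 on shIRF7 array 1 and 15.5 on array 2, against a control mean of 13.2. The median difference was -0.71 for the pair and -0.99 for the other 8, and neither set had a called gene. At an unadjusted p under 0.05 the pair held 1 lower gene and the other 8 held 2, beside 4.1% of all genes lower. The difference between the 2 sets was not tested.

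**Figure D3:**
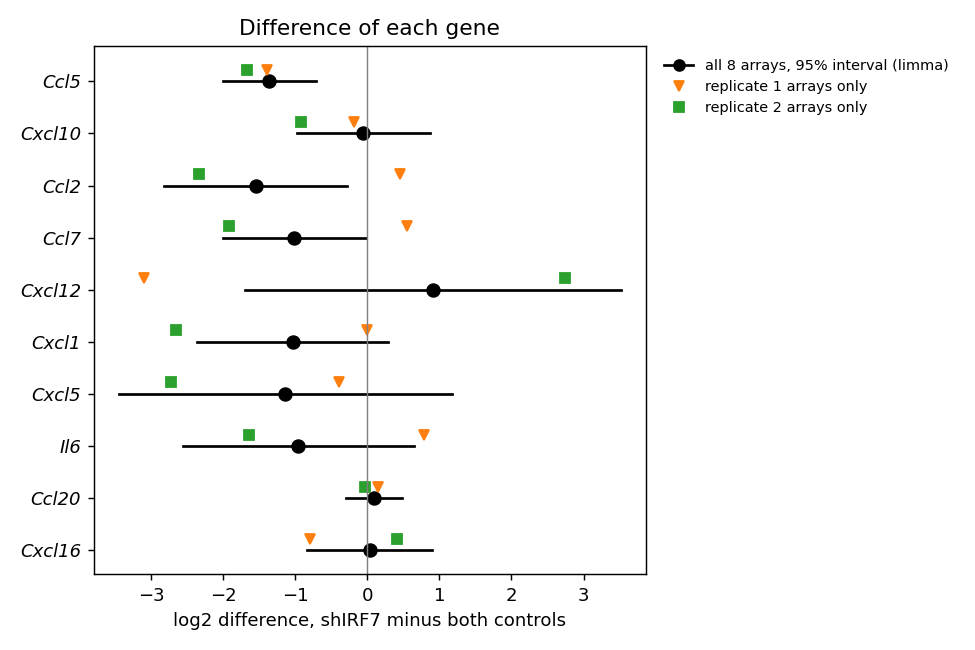
Log2 difference of each gene, shIRF7 minus both controls (x axis), with its 95% limma interval over 8 arrays (black) and the difference among replicate 1 arrays (orange triangles) and replicate 2 arrays (green squares) alone. Ccl5, Cxcl10, Cxcl1 and Cxcl5 are below 0 in all 3 readings, while Ccl2, Ccl7, Cxcl12, Il6, Ccl20 and Cxcl16 change sign between replicates 1 and 2.

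Ccl2 (MCP-1) and Ccl7 (MCP-3) are monocyte chemoattractants that both act on CCR2, and their genes are neighbours on chromosome 11. Ccl2 measured 14.6 and 16.0 with the empty vector, 15.9 and 16.4 with scramble, and 15.7, 13.9, 13.8 and 13.4 on shIRF7 arrays 1 to 4. Arrays 2 to 4 lay below every control, but array 1 lay among them. Its difference was -1.55 (SE 0.546, 95% interval -2.82 to -0.28), a 2.93-fold lower mean with an adjusted p of 0.533. Within replicate 1 the difference was 0.45 and within replicate 2 it was -2.34. Ccl2 was above background on all 8 arrays, and so was Ccl7.

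Ccl7 showed the same split of the shIRF7 arrays. It measured 13.7 and 14.5 with the empty vector, 14.3 and 15.2 with scramble, and 14.6, 12.9, 12.8 and 13.4 on shIRF7 arrays 1 to 4, so that again arrays 2 to 4 lay below all controls and array 1 did not. The difference was -1.01 (SE 0.426, 95% interval -2.0 to -0.024), a 2.02-fold lower mean with an adjusted p of 0.606. It was 0.55 within replicate 1 and -1.92 within replicate 2. Without shIRF7 replicate 1, the adjusted p was 0.093 for Ccl2 (difference -2.07) and 0.137 for Ccl7 (difference -1.40), the lowest of any alternative tried for either gene. The MSC marker list shared part of this pattern. Its mean was 11.7 to 11.9 on control arrays and 10.8 to 11.6 on shIRF7 arrays, and Cd44, a hyaluronan receptor, measured 13.1, 14.9, 14.0 and 14.8 on control arrays and 13.8, 12.4, 12.7 and 12.6 on shIRF7 arrays (difference -1.34, adjusted p = 0.525). In that list 4 of 6 measured genes had a negative sign and 2 a positive sign. Of the 6, 2 were lower at an unadjusted p under 0.05 (all genes, 4.1%), Thy1 (difference -2.15, adjusted p = 0.501) and Cd44. Thy1 split the shIRF7 arrays otherwise: it measured 7.09 on array 1, below every control, and 7.60 on array 4, within the control range. The part of the marker shift in the Ccl2 and Ccl7 values was not tested.

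In the RefSeq gene order Ccl2 and Ccl7 open a run of 5 ligand genes that goes on with Ccl11, Ccl12 and Ccl8. These are given for their position, outside the rule for named genes. Ccl11 (eotaxin-1, which attracts eosinophils) measured 9.65, 9.89, 9.25 and 8.23 on control arrays and 7.09, 11.6, 11.5 and 9.39 on shIRF7 arrays (difference 0.66, adjusted p = 0.922). Ccl8 (MCP-2) measured 11.7, 8.77, 8.91 and 8.57 on control arrays and 6.75, 12.3, 12.6 and 9.68 on shIRF7 arrays (difference 0.84, adjusted p = 0.931). Both were lowest on shIRF7 array 1 and highest on shIRF7 arrays 2 and 3, while Ccl2 and Ccl7, a few genes away, were higher on shIRF7 array 1 than on arrays 2 and 3. Ccl12 stayed between 2.52 and 3.30 on all arrays.

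**Figure D4:**
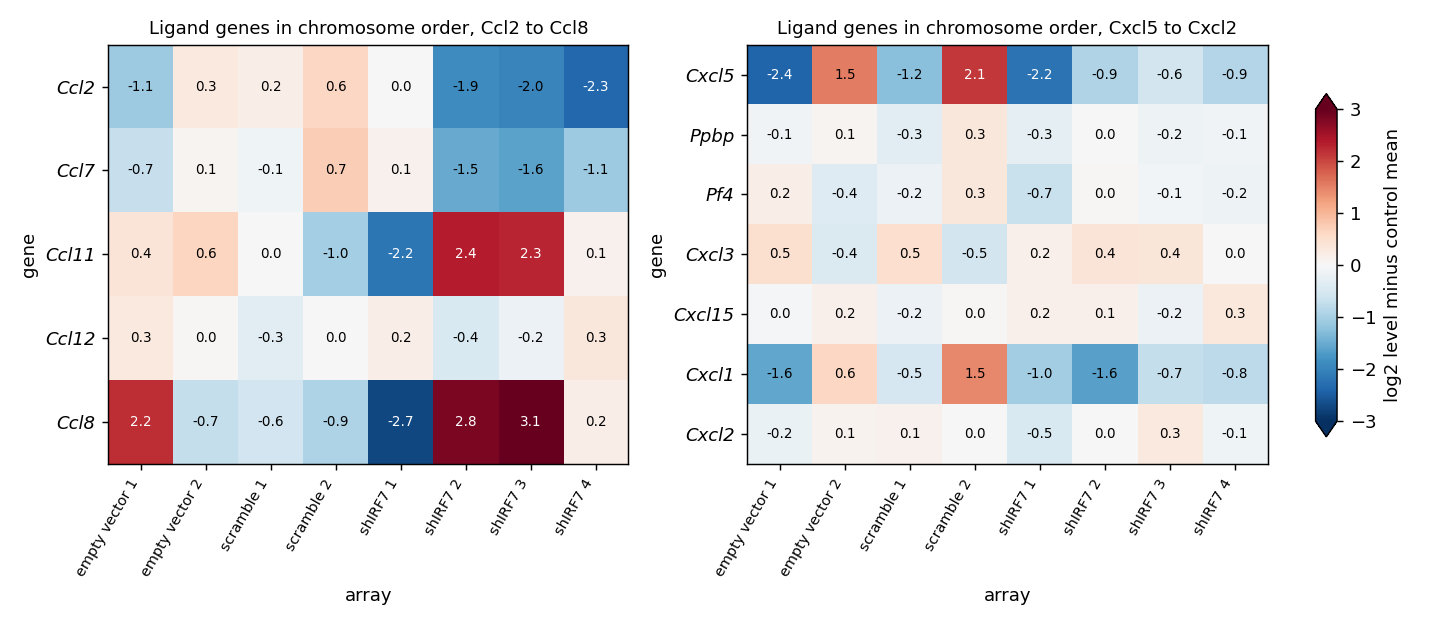
Log2 level minus the control mean (colour and printed values) of the ligand genes from Ccl2 to Ccl8 (left) and from Cxcl5 to Cxcl2 (right), with genes in chromosome order (rows) on each array (columns). On shIRF7 arrays 2 and 3, Ccl2 and Ccl7 are blue while Ccl11 and Ccl8 are red, and on the right values beyond 1 unit appear in Cxcl5 and Cxcl1 alone.

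Cxcl12 (SDF-1) is the ligand of CXCR4 and retains blood-forming and immune cells in stromal niches. It measured 14.5 and 12.7 with the empty vector, 12.8 and 12.9 with scramble, and 10.5, 15.5, 15.6 and 14.8 on shIRF7 arrays 1 to 4. Arrays 2 to 4 lay above every control and array 1 below every control, and as for Ccl8 and Ccl11 the lowest value was on shIRF7 array 1 and the highest values on arrays 2 and 3. The mean was 13.2 ± 0.84 (SD, n = 4) in controls and 14.1 ± 2.42 (SD, n = 4) in shIRF7. The difference of 0.91 (SE 1.12, 95% interval -1.70 to 3.52) had an adjusted p of 0.907. It was -3.10 within replicate 1 and 2.75 within replicate 2, and without shIRF7 replicate 1 it was 2.11 (adjusted p = 0.130). Cxcl12 was above background on all 8 arrays.

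Cxcl1 (KC) and Cxcl5 (LIX) are neutrophil chemoattractants that act on CXCR2. Cxcl1 measured 5.15 and 7.32 with the empty vector, 6.21 and 8.16 with scramble, and 5.67, 5.09, 6.0 and 5.94 on shIRF7 arrays 1 to 4. Its difference was -1.04 (SE 0.569, 95% interval -2.36 to 0.29, adjusted p = 0.721). Both control groups were higher in replicate 2 than in replicate 1, by 2.17 with the empty vector and 1.96 with scramble, while in shIRF7 replicate 2 was lower by -0.58. The difference from controls was accordingly -0.0086 within replicate 1 and -2.65 within replicate 2. Cxcl1 was above the background of its own array on 0 of 8 arrays.

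Cxcl5 showed the same split between control replicates. It measured 5.99 and 9.93 with the empty vector, 7.15 and 10.5 with scramble, and 6.18, 7.49, 7.83 and 7.52 on shIRF7 arrays 1 to 4. The shIRF7 values lay inside the control range, and only the replicate 2 controls were above background. Its difference was -1.14 (SE 0.995, 95% interval -3.45 to 1.17, adjusted p = 0.849), and it was -0.39 in replicate 1 and -2.72 in replicate 2. The difference of either gene rested on the replicate 2 controls: without empty vector replicate 2 it was -0.49 for Cxcl1 and -0.15 for Cxcl5, and without scramble replicate 2 it was -0.55 and -0.30. In the run of 7 ligand genes on chromosome 5 from Cxcl5 to Cxcl2, Cxcl3 was higher in replicate 1 of both controls, at 5.12 and 4.21 with the empty vector and 5.15 and 4.11 with scramble. The other 4 (Ppbp, Pf4, Cxcl15 and Cxcl2) stayed between 2.45 and 4.25 on all arrays.

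Il6, an inflammatory cytokine that stromal cells secrete in ageing and senescence, measured 5.53 and 6.68 with the empty vector, 7.29 and 6.35 with scramble, and 7.20, 4.87, 3.92 and 6.01 on shIRF7 arrays 1 to 4. Arrays 2 and 3 of shIRF7 lay below all controls, and the other 2 lay within their range. The difference was -0.96 (SE 0.691, 95% interval -2.56 to 0.65, adjusted p = 0.804), and it was 0.79 in replicate 1 but -1.64 in replicate 2. Without shIRF7 replicate 3 it was -0.43. Il6 was above background on 0 of 8 arrays.

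Ccl20 (MIP-3 alpha) acts on CCR6 and Cxcl16, a membrane-bound ligand that is shed by ADAM10, acts on CXCR6. Ccl20 ranged from 4.79 to 5.57 on control arrays and from 5.07 to 5.35 on shIRF7 arrays, with a difference of 0.091 (95% interval -0.30 to 0.48, adjusted p = 0.945). Cxcl16 ranged from 4.87 to 6.20 on control arrays and from 5.23 to 6.23 on shIRF7 arrays, with a difference of 0.031 (95% interval -0.84 to 0.90, adjusted p = 0.991). The shIRF7 values of Ccl20 lay inside the control range, and those of Cxcl16 did so apart from array 4. Neither gene was above background on any array.

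Each control was also used alone. Against scramble limma called 0 of the 10 (all genes, 0.00513%, 1 gene). At an unadjusted p under 0.05, 3 of the 10 were lower, again Ccl5, Ccl2 and Ccl7 (all genes lower, 3.27%), and 0 were higher (2.87%). The differences were -1.49 for Ccl5, -1.95 for Ccl2 and -1.32 for Ccl7, with adjusted p from 0.425 to 0.782. Against the empty vector 0 were called (all genes, 0%), with 1 lower at that level, Ccl5 at -1.22 (adjusted p = 0.625, all genes lower 3.3%), and 0 higher (2.54%). There Ccl2 differed by -1.15 (adjusted p = 0.908) and Ccl7 by -0.71 (adjusted p = 0.932). Both comparisons use the same shIRF7 arrays, so they are not independent. The controls themselves were compared as background: scramble minus empty vector had 0 called genes of the 10 (all genes, 0%), with 0 lower (1.15%) and 0 higher (0.779%) at an unadjusted p under 0.05. That difference was 0.80 for Ccl2, 0.60 for Ccl7, 0.95 for Cxcl1, 0.87 for Cxcl5, 0.71 for Il6, 0.27 for Ccl5, -0.72 for Cxcl12, -0.39 for Ccl20, -0.19 for Cxcl10 and -0.10 for Cxcl16. For Ccl20, Cxcl10 and Cxcl16 this was larger in size than the difference of shIRF7 from both controls, and for Cxcl1, Cxcl5, Cxcl12 and Il6 it was somewhat smaller.

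The wider pathway was read from lists by role. In this comparison 4.1% of all genes were lower and 4.01% higher at an unadjusted p under 0.05. Counts at that level are to be read against these shares. The lists were chosen with earlier results of these data known, so they were not picked blind. Among 27 other chemokine ligands 0 were called and 1 was higher at an unadjusted p under 0.05, with a median difference of 0.044 and 4 genes above background on average. The higher gene was Ccl27a, a skin-homing chemokine, at 5.79, 5.0, 5.56 and 5.26 on control arrays and 6.05, 5.87, 6.13 and 6.47 on shIRF7 arrays (difference 0.73, adjusted p = 0.441), with no overlap but no value above background. Cx3cl1 (fractalkine), which was above background on every array, measured 12.1, 11.9, 12.0 and 11.6 on control arrays and 11.9, 11.3, 11.4 and 11.5 on shIRF7 arrays (difference -0.39, adjusted p = 0.644). Of 23 chemokine receptors 22 were measured and 1 was above background on average. It was Ackr3 (CXCR7), a scavenger of Cxcl12, at 7.01, 7.49, 8.53 and 8.06 on control arrays and 8.42, 8.80, 8.61 and 7.79 on shIRF7 arrays (difference 0.63, adjusted p = 0.590). Against scramble alone its difference was 0.11, while scramble minus empty vector was 1.05. Receptors had 0 called genes, 1 higher and 0 lower at an unadjusted p under 0.05, and a median of -0.015.

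The largest differences among genes tied to Il6 lay in its signalling. Of 18 listed genes of the interleukin 6 family and its signalling 15 were measured and 7 were above background on average. Limma called 0. At an unadjusted p under 0.05, 3 were lower (all genes, 4.1%) and 0 were higher (4.01%), and the median difference was -0.17. Jak1, the main kinase bound to the shared receptor chain and also to interferon receptors, measured 11.3, 11.3, 11.2 and 11.4 on control arrays and 9.91, 10.2, 10.1 and 9.57 on shIRF7 arrays. The groups did not overlap, and the difference was -1.35 (SE 0.173, adjusted p = 0.0692), or -1.33 among replicate 1 arrays and -1.16 among replicate 2 arrays. Jak2 measured 12.5, 12.7, 13.4 and 13.2 on control arrays and 12.2, 11.9, 11.7 and 11.8 on shIRF7 arrays (difference -1.04, SE 0.16, adjusted p = 0.111), and the difference was -0.77 in replicate 1 and -0.998 in replicate 2. Il6ra, the ligand-binding receptor chain, measured 8.98, 8.47, 8.33 and 7.79 on control arrays and 6.63, 7.65, 7.72 and 7.06 on shIRF7 arrays (difference -1.13, SE 0.289, adjusted p = 0.332), above background on 2 of 8 arrays. Its difference was -2.03 in replicate 1 and -0.48 in replicate 2. These 3 of 15 measured genes, like Ccl5, had all shIRF7 values below all control values (all genes, 2.8%), and none passed the threshold. Il6st, the shared signal-transducing chain, differed by -0.15 (adjusted p = 0.939).

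The list of NF-kB factors and feedback inhibitors also held the target gene Vcam1 (18 of 20 measured, 9 above background on average). It had 0 called genes, 1 higher and 0 lower at an unadjusted p under 0.05, and a median of 0.071. The higher gene was Vcam1, an adhesion molecule and NF-kB target, at 13.2, 12.9, 13.1 and 12.7 on control arrays and 13.1, 13.6, 13.6 and 14.3 on shIRF7 arrays (difference 0.67, adjusted p = 0.578). Within replicate 1 its difference was -0.075 and within replicate 2 it was 0.85. Upstream interleukin 1, TNF and Toll-like receptor genes (15 of 18 measured, 9 above background on average) had 0 called, 2 lower and 0 higher, with a median of -0.11. Tlr3, the endosomal sensor of double-stranded RNA, measured 10.6, 10.5, 10.3 and 10.1 on control arrays and 8.28, 9.08, 9.33 and 9.87 on shIRF7 arrays. Every shIRF7 value of Tlr3 was below every control value, with a difference of -1.24 (SE 0.316, adjusted p = 0.329), or -2.17 in replicate 1 and -1.24 in replicate 2. The other lower gene was the TNF receptor Tnfrsf1b (difference -0.55, adjusted p = 0.542), while the adaptor Ticam1 differed by 0.57 (adjusted p = 0.746).

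The proteases that shed or trim chemokines (6 of 6 measured, 4 above background on average) had 0 called, 1 higher and 0 lower, and a median of 0.22. Adam10, the sheddase of Cxcl16 and Cx3cl1, measured 12.9, 13.1, 13.2 and 13.1 on control arrays and 13.3, 13.3, 13.4 and 13.8 on shIRF7 arrays, a small difference of 0.37 without overlap (adjusted p = 0.611). Regulators of cytokine mRNA decay (8 of 8 measured, 6 above background on average) had 0 called and 0 lower or higher at that level. The sign was negative in all 8, beside 9694 of all 19505 genes, with a median of -0.20. Against scramble alone it was negative in 7 and positive in 1, and against the empty vector negative in 8. Zc3h12a (Regnase-1), which cleaves Il6 mRNA, differed by -0.54 (adjusted p = 0.642), Khsrp by -0.42 (adjusted p = 0.688) and Zfp36l2 by -0.30 (adjusted p = 0.695).

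**Figure D5:**
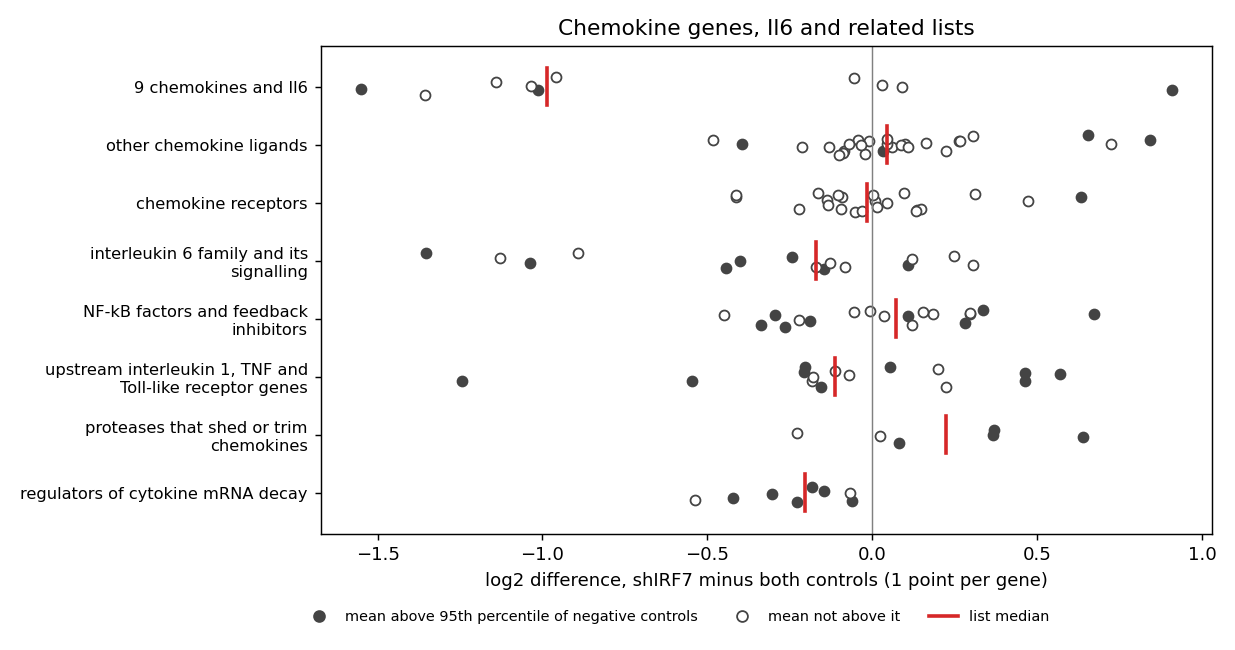
Log2 difference, shIRF7 minus both controls (x axis), of each measured gene in the 9 chemokines with Il6 and in 7 related lists (rows), filled where the mean over arrays exceeds the 95th percentile of negative controls, with list medians in red. The 10 genes have a median of -0.99 and wide scatter, and the medians of the other lists lie between -0.20 and 0.22.

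The genes most like each member over the 8 arrays were ranked by Pearson's r among 17111 named genes, as a description of shared order only, since all 8 arrays and the same normalization enter every r. The highest r among so many genes over 8 arrays can be large for unrelated genes, and no r was tested. Ccl7 was most like Rtn4 and P2ry2 (r = 0.993 for both) and Nol6 (0.989). Ccl2 was most like Trim46 (0.990), Ppme1 (0.986) and Slc2a1 (0.986). Cxcl12 was most like Dram2 (0.991), Imp3 (0.976) and Abhd14b (0.973). For Ccl5 the list was Ccdc88b (0.958), Trim44 (0.945) and Serpinb9 (0.942), and for Cxcl10 it was Tmem81 (0.916), Rsph4a (0.914) and Gpatch2 (0.910). Cxcl1 was most like Atg3 (0.986), Trub1 (0.979) and Bclaf1 (0.979), and Cxcl5 most like Gga3 (0.989), Cpt1b (0.978) and Ttc14 (0.976). Il6 was most like Tent5b (0.981), Tbc1d1 (0.967) and Ippk (0.965). Ccl20 was most like Shisa3, Smlr1 and Bpifb6 (r from 0.939 to 0.944), and Cxcl16 most like Maob, Ppp1r3d and Fam174a (r from 0.976 to 0.985). Ccl5, Cxcl10, Cxcl1, Il6, Ccl20 and Cxcl16 were themselves above background on 0 of 8 arrays. The like genes ran from low ones with little range, such as Ccdc88b (mean 3.39, range 0.34), to high ones such as Rtn4 (mean 15.1, range 0.59).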

How the data were processed

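Per the submitters' processing notes, the authors summarised the arrays with RMA (Affymetrix Expression Console 1.4.1.46), and the deposited values, 1.66 to 18.9, are on a log2 scale as judged from their range. No source used here gives the genome build of the probe sets. Of 28846 deposited probe sets, 19572 carried a single gene symbol. Where a gene had several (55 genes), the probe set with the highest mean was kept, leaving 19505 genes. A further 5222 probe sets were negative controls.

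The fit was lmFit with eBayes (limma 3.58.1, R 4.3.3), 1 mean per group, all 8 arrays, 5 residual and 2.68 prior degrees of freedom. Benjamini-Hochberg adjustment covered 19505 genes, with a threshold of 0.05, and both controls were weighted equally. The fit was tested on simulated data. A list is described by counts and its median, with no test, and 152 of 165 list genes matched by symbol. Differences of genes near background can be understated by RMA.

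The genes and lists were chosen with earlier results of these data known. Named were the 10 genes, Irf7, up to 3 genes with the smallest p per other list, and the 3 genes most like each member. Outside this rule, Il6st, the cell markers Pdgfrb, Itgb1, Nt5e and Lpl, and ligand genes beside Ccl2 and Cxcl1 were named after their values were seen. Predicted genes, Riken clones and olfactory or vomeronasal receptors were left out of the likeness ranking. No column was unused (0).

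Alternatives were cyclic loess between arrays, all probe sets kept, probe sets averaged per gene, a filter on dim genes (mean above 8.07), eBayes with trend and robust fitting, both controls as 1 group, a replicate block, and each array left out.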

Additional observations from a re-analysis of the deposited data

Results flagged for a closer look

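Of 11 groups of 4 arrays with a gap test (each of the 10 genes and Irf7 in shIRF7), 2 held an array far from the others by Dixon's criterion, which by chance marks about 1 in 20 groups. Cxcl12 measured 10.5 on shIRF7 array 1, with 0.842 of the whole range lying between it and the next array. Cxcl16 measured 6.23 on shIRF7 array 4, with 0.893 of the range as its gap, at a level below background.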

How the results depend on the processing

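The count of the 10 genes past the threshold was 0 under every alternative run. Their median difference of -0.99 was -0.62 with a replicate block and ran from -1.23 to -0.40 with 1 array left out (nearest 0 without empty vector replicate 2). The sign of the difference turned in Cxcl10, Ccl20, Cxcl12 and Cxcl16 under some alternative and in none of the other 6 genes. Leaving out 1 array, Cxcl10 ran from -0.46 to 0.17, Ccl20 from -0.056 to 0.24 and Cxcl16 from -0.30 to 0.36. Cxcl10 was 0.093 with shIRF7 replicates 2 and 3 averaged, an alternative chosen after seeing the data. With a replicate block Cxcl12 was -0.18 and Cxcl16 -0.19. The cause was not tested. Over all genes, deviations of same-numbered arrays from their group means correlated at 0.757 between empty vector and scramble. Replicates 1 and 2 give this same value, because each control group has 2 arrays. With shIRF7, which has 4 arrays, they correlated between -0.310 and -0.161. The median negative control was 4.18 to 4.26 on replicate 1 arrays of all 3 groups and 4.55 to 4.56 on replicate 2 arrays. Calls among all genes (6) were 28 with both controls as 1 group or without shIRF7 replicate 1, 3 with trend and robust fitting or without shIRF7 replicate 4, 2 without empty vector replicate 2, 1 of 7019 genes with the filter on dim genes, and 0 with the replicate block, with shIRF7 replicates 2 and 3 averaged, and when either scramble array or shIRF7 replicate 2 or 3 was left out. That filter left out 7 of the 10 genes, which have no value there, and signal near background limits what can be said of those 7.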
